A study of Mus musculus with 7 samples.

Results

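The 32 genes described here encode enzymes of cholesterol and fatty acid synthesis and the proteins that control them, and were taken by name from a list of pathway members. Of these, 31 had a value in the table of 14820 genes, namely all 18 listed cholesterol enzymes, all 5 listed regulators and carriers, and 8 of 9 listed fatty acid enzymes; the expression of Fads2 was not analysed here. Skin papillomas, benign tumours of the epidermis, were compared between p16 mice (K5-rtTA/tet-p16, 3 papillomas, numbered 1, 2 and 3) and Control mice (tet-p16, 4 papillomas, numbered 1, 2, 3 and 5). In p16 mice the keratin 5 promoter drives a doxycycline-dependent activator in basal keratinocytes, which switches on a human p16 transgene, an inhibitor of the cell cycle; Control mice carry the p16 transgene without the activator. All mice received the mutagen DMBA (50 nmol, once, on the skin) at 3 weeks of age, then doxycycline and repeated doses of the tumour promoter TPA from a week later, were followed for 23 weeks, and were killed 10 days after the last TPA dose at 27 weeks of age. The comparison asks whether papillomas that formed under p16 expression differ from Control papillomas in the transcripts of lipid synthesis.

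Cholesterol is built from acetyl-CoA through mevalonate, farnesyl diphosphate, squalene and lanosterol, while fatty acids are built from the same acetyl-CoA by carboxylation, chain synthesis, elongation and desaturation. Both branches are controlled by the SREBP transcription factors, which are held in the endoplasmic reticulum by Insig proteins and escorted to the Golgi by Scap when sterols run low. In skin, differentiating keratinocytes make cholesterol, fatty acids and ceramides for the permeability barrier, and sebaceous glands make large amounts of lipid for sebum.

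Libraries held 2407665, 1158035 and 4365391 reads in p16 papillomas 1, 2 and 3, against 2723298 to 4119715 reads in the Control papillomas, so p16 2 was the shallowest. Values are the authors' normalized read counts, in which 1 read was worth 2.89 in p16 2 and 0.735 to 1.35 in the other papillomas. Differentiated keratinocyte markers summed to 119600 to 168500 in p16 papillomas and 70420 to 80020 in Control papillomas, with 5 of 8 genes higher by the test and 0 lower, and basal keratinocyte markers summed to 32670 to 45670 in p16 papillomas and 43650 to 67680 in Control papillomas, with 1 of 6 lower by the test and 0 higher. Skeletal muscle markers stood apart in p16 2, with a sum of 9789 against 260 and 2102 in p16 1 and 3 and 197 to 564 in Control papillomas. Mouse Cdkn2a had a log2 change of -1.21 (adjusted p = 0.175), a value that checks nothing of the human transgene, which was not analysed here. In whole papillomas, fewer cells of a type and less RNA per cell cannot be told apart, and since nothing in the labels says whether papillomas came from separate mice, p-values measure only the spread between these papillomas.

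None of the 31 members passed the test between p16 and Control papillomas (limma, Benjamini-Hochberg adjusted p under 0.05 over 10466 genes), where 5.62% of all tested genes did; edgeR passed 0 members where it passed 5.19% of all genes, and DESeq2 passed 1, Fads1, where it passed 7.51%. The members' log2 changes, p16 over Control, were positive for 16 and negative for 15, with a median of 0.00 and a median size of 0.27, against a median of -0.02 and a median size of 0.30 over all tested genes. At an unadjusted p under 0.05 there were 5 members, Mvk, Tm7sf2 and Ebp with positive and Idi1 and Fads1 with negative estimates, or 16.1% of members against 21.2% of all genes. There were 4 members without overlap between the groups, with Mvk above and Hmgcs1, Hsd17b7 and Sc5d below all Control values, or 12.9% of members against 19.6% of all genes. The 95% confidence interval of the change lay within a 2-fold difference in either direction for 26 of the 31 members, so for these a change of 2-fold or more is outside the interval. The exceptions were Tm7sf2, Insig1, Acss2, Scd1 and Fads1, whose intervals reached past 2-fold on 1 side.

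**Figure D1:**
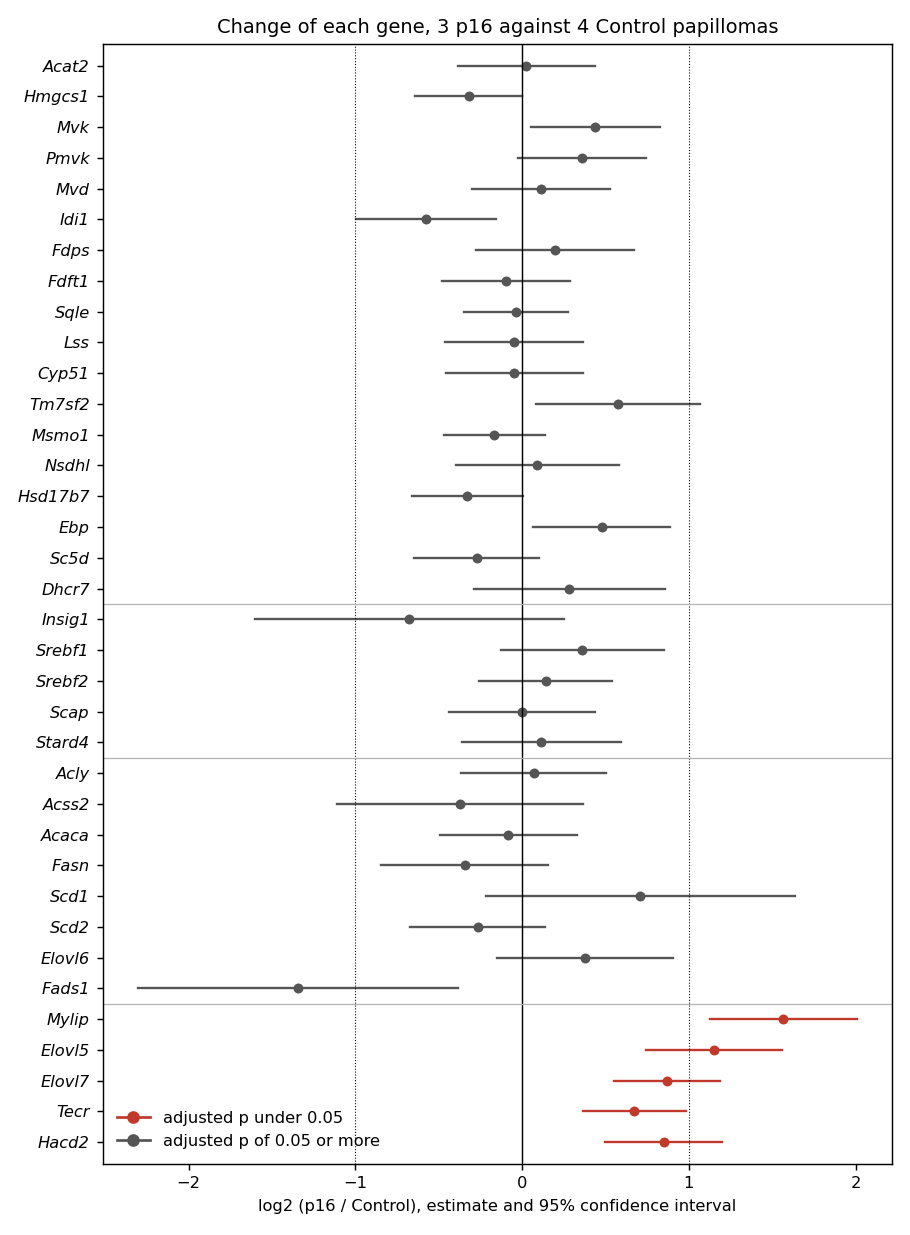
Change of each member and of the 5 neighbouring lipid genes that passed the test, as log2 of p16 over Control (horizontal axis) with its 95% confidence interval; vertical dotted lines mark a 2-fold difference in either direction. Grey intervals of all 31 members belong to adjusted p-values of 0.05 or more, while the 5 red intervals of Mylip, Elovl5, Elovl7, Tecr and Hacd2 lie to the right of 0.

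Promoter sequences are shown for the members whose groups did not overlap and whose window is largely free of annotated exons, Hmgcs1, Mvk and Sc5d, and for Mylip, the neighbouring gene with the largest change past the test, so that the elements through which SREBP and its partners are known to act can be seen beside the values. Each is the stretch of up to 250 bases before the RefSeq start (GRCm38.p6), 5′ to 3′ on the gene's strand, with bases in annotated exons left out; for Mvk 208 bases remain. Capitals mark matches on either strand to a sterol regulatory element (TCACNCCAC), the CCAAT box bound by NF-Y, which appears as ATTGG when it lies on the other strand, and the E-box CACGTG; none of these motifs overlaps another in the windows shown.
Hmgcs1, chr13:119690101-119690350, plus strand: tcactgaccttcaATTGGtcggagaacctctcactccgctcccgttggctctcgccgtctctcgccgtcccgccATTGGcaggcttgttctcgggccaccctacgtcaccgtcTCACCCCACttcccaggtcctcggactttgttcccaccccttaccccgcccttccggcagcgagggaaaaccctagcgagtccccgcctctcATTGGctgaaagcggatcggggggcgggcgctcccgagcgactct
Mvk, chr5:114444061-114444268, plus strand: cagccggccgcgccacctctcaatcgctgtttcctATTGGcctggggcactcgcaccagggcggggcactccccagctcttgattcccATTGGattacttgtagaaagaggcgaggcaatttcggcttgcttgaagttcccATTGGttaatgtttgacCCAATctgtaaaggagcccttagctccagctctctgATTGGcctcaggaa
Sc5d, chr9:42264301-42264550, minus strand: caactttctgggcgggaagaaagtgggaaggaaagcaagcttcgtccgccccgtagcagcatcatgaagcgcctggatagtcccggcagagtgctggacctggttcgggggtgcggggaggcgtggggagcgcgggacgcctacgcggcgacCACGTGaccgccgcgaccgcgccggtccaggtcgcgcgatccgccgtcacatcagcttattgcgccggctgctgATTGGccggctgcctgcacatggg
Mylip, chr13:45389492-45389741, plus strand: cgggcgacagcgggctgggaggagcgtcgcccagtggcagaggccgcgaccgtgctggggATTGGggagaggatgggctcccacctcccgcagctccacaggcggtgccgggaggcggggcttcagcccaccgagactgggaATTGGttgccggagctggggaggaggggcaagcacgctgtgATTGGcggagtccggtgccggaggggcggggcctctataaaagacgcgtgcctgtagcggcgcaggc

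RefSeq promoters were at hand for 25 of the 32 listed members. The sterol regulatory element TCACNCCAC was found in 1 of 15 cholesterol enzyme promoters, that of Hmgcs1 (137 to 129 bases before the start), and in none of 6 fatty acid (that of Fads2 included) and 4 regulator promoters, while 1.22% of the 27025 genes with a promoter held it. Only exact matches in the 250 bases before the start were counted, so elements of other sequence or position were not seen. The shorter form TCACNCCA was also present in Msmo1 and Srebf2, and in 4.2% of all genes. The CCAAT box was found in 14 of 15 cholesterol enzyme promoters, in 2 of 6 fatty acid enzyme promoters (Acss2 and Fasn) and in 3 of 4 regulator promoters (Insig1, Srebf1 and Srebf2), against 37.5% of all genes. Mvk held 5 such boxes and Hmgcs1 held 3. The E-box was found in Hsd17b7, Sc5d, Dhcr7, Insig1 and Scap, and in 6.86% of all genes. Mvk, whose promoter lacked the sterol regulatory element, had a positive log2 change, and Hmgcs1, whose promoter held it, a negative one. Neither gene passed the test, and whether these motifs bear on the changes was not tested.

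The first steps of cholesterol synthesis, which turn acetyl-CoA into farnesyl diphosphate, had 7 members, of which 5 had positive and 2 negative estimates. Acat2, the thiolase that joins acetyl-CoA units, had normalized counts of 718, 663 and 813 in p16 papillomas 1, 2 and 3, against 606, 863, 559.7 and 896 in Control papillomas 1, 2, 3 and 5. The p16 values all lay inside the Control range, and the log2 change was 0.03 (SE 0.19, adjusted p = 0.959). Hmgcs1, the synthase that makes HMG-CoA (chr13:119690379-119708260), had 460.1, 590.5 and 478.5 in p16 papillomas, against 646, 592, 593 and 709 in Control papillomas. Every p16 value was below every Control value, though p16 2 and Control 2 were nearly equal, and the log2 change was -0.32 (SE 0.15, adjusted p = 0.237).

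Mvk, the kinase that phosphorylates mevalonate (chr5:114444269-114460591), had 189.7, 226 and 190.4 in p16 papillomas, against 139, 179, 121 and 159 in Control papillomas. All 3 p16 values were above the Control values, and the fitted ratio was 1.36-fold with a 95% interval of 1.04 to 1.78 (log2 change 0.44, SE 0.18, adjusted p = 0.177). Idi1, the isomerase that interconverts the isoprenoid building blocks (chr13:8885501-8892451), had the smallest p of these steps, with 312, 278 and 345 in p16 papillomas, against 483, 541, 327 and 539.5 in Control papillomas. Control 3 was low and fell among the p16 values, and the fitted ratio was 0.67-fold with a 95% interval of 0.501 to 0.897 (log2 change -0.58, SE 0.19, adjusted p = 0.109). Without Control 3 the log2 change of Idi1 was -0.74 and its adjusted p 0.0228, so that this 1 papilloma decided whether it passed; it passed under none of the other alternatives tried. The kinase Pmvk had a log2 change of 0.36, the decarboxylase Mvd 0.11 and the prenyl transferase Fdps 0.20, with overlapping groups for each. Fdps is uncertain, because 80.9% of the 40-base words in the last 500 bases of its transcript also occur in other annotated transcripts, among them processed pseudogenes, and counts from 3′ ends cannot separate these.

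From squalene to lanosterol, Fdft1 (squalene synthase), Sqle (squalene epoxidase, the first oxygen-dependent step) and Lss (lanosterol synthase) had log2 changes of -0.10, -0.04 and -0.05. Sqle had 506, 535.5 and 478.5 in p16 papillomas, against 572, 501, 452 and 562 in Control papillomas, with an adjusted p of 0.915. Fdft1, with the smallest p of the 3 enzymes, had 382, 350.2 and 484 in p16 papillomas, against 378, 487, 367 and 504 in Control papillomas (SE 0.18, adjusted p = 0.8). The groups overlapped for each enzyme, and each 95% interval excluded a 2-fold difference in either direction.

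The 8 enzymes from lanosterol to cholesterol were divided 4 and 4 in the sign of their estimates. Tm7sf2, a sterol reductase that acts after the demethylase Cyp51, had the smallest p, with 151, 92.6 and 107 in p16 papillomas, against 98.2, 77.3, 71.2 and 63.2 in Control papillomas. Control 1 lay within the p16 range, and the fitted ratio was 1.49-fold with a 95% interval of 1.06 to 2.09 (log2 change 0.58, SE 0.22, adjusted p = 0.164). An exon of Vps51 on the same strand overlaps Tm7sf2. Ebp, the sterol isomerase, had 284, 411 and 313 in p16 papillomas, against 302, 215, 242 and 204 in Control papillomas, and again Control 1 alone reached into the p16 range (log2 change 0.48, SE 0.19, adjusted p = 0.167). Msmo1, which oxidises methyl groups of sterols made after the Cyp51 step, had 1125, 1051 and 1331 in p16 papillomas, against 1314, 1384, 1204 and 1322 in Control papillomas (log2 change -0.17, SE 0.14, adjusted p = 0.539).

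Hsd17b7, the reductase of the keto-sterol intermediate, had 569, 527 and 435 in p16 papillomas, against 738, 587, 597 and 637.5 in Control papillomas. All p16 values were below the Control values, and the log2 change was -0.33 (SE 0.15, adjusted p = 0.239). Sc5d, a sterol desaturase of the last steps, had 136, 98.4 and 127 in p16 papillomas, against 137, 153, 138 and 151 in Control papillomas. The groups just failed to overlap, since p16 1 and Control 1 differed by less than the worth of 1 read, and the log2 change was -0.27 (SE 0.17, adjusted p = 0.396). Cyp51, Nsdhl and Dhcr7, the last of which reduces the final precursor of cholesterol, had overlapping groups and log2 changes of -0.05, 0.09 and 0.28. Estimates of neighbouring enzymes of the same chain differed in sign, but none of these enzymes passed the test. The estimates of Cyp51 (SE 0.19) and Nsdhl (SE 0.22) were smaller than their SE, so their signs are not settled. Of the 18 cholesterol enzymes, 17 had intervals within a 2-fold difference.

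**Figure D2:**
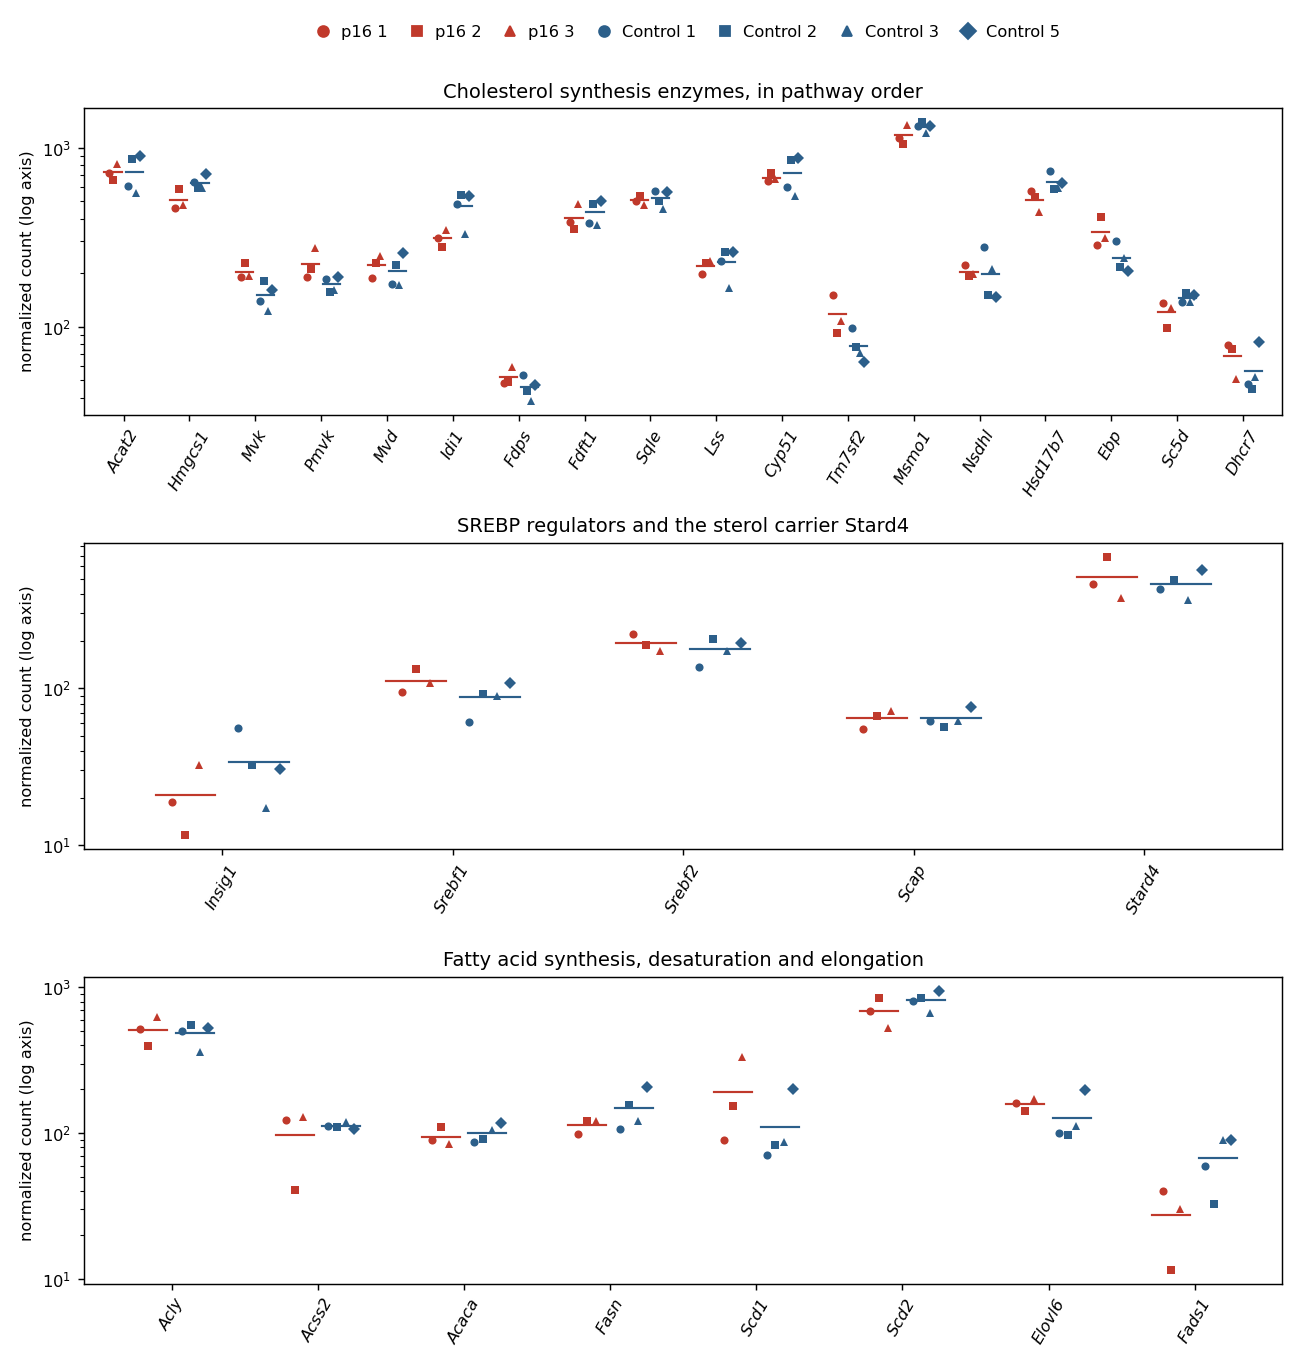
Normalized count of each of the 31 members in every papilloma (log axis), p16 in red left of Control in blue, with a horizontal line at each group's arithmetic mean. Marks of the groups overlap for 27 of the 31 genes; Mvk lies above, and Hmgcs1, Hsd17b7 and Sc5d lie below, the Control papillomas.

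The control system of the pathway had 5 members, 4 with positive and 1 with negative estimates, and none had an unadjusted p under 0.05. Srebf1, which encodes the SREBP most tied to fatty acid synthesis, had the smallest p, with 94.2, 133 and 108 in p16 papillomas, against 61.5, 91.8, 89.5 and 107.5 in Control papillomas. Control 5 equalled p16 3 within the worth of 1 read, and the log2 change was 0.36 (SE 0.22, adjusted p = 0.38). Insig1, which retains SREBP in the endoplasmic reticulum and is itself an SREBP target, had 18.8, 11.6 and 32.3 in p16 papillomas, against 55.5, 32.6, 17.3 and 30.6 in Control papillomas. The p16 2 value stands for 4 reads and the groups overlap, with a log2 change of -0.68 (SE 0.42, adjusted p = 0.391). Stard4, a soluble carrier of cholesterol, had 463, 689 and 377 in p16 papillomas, against 426, 492, 362.5 and 566 in Control papillomas, with the highest and a low value both among the p16 papillomas (log2 change 0.12, SE 0.22, adjusted p = 0.806). Srebf2, the SREBP most tied to cholesterol synthesis, and its escort Scap had log2 changes of 0.14 and 0.00. Insig2, the second Insig gene and no member, had 122, 133 and 126 in p16 papillomas, against 96.5, 80.9, 93.1 and 79.0 in Control papillomas, with a log2 change of 0.54 and an adjusted p of 0.0901, and therefore did not pass.

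The supply of acetyl-CoA and the synthesis of the chain had 4 members, of which Acly alone had a positive estimate. Acly, which releases acetyl-CoA from citrate, had 517, 394 and 628 in p16 papillomas, against 500.5, 553, 361 and 530.0 in Control papillomas, with p16 3 the highest and Control 3 the lowest papilloma (log2 change 0.07, SE 0.20, adjusted p = 0.88). Fasn, the fatty acid synthase that assembles palmitate, had 98.2, 122 and 120.5 in p16 papillomas, against 108, 156, 121 and 209 in Control papillomas. Control 5 was the highest papilloma for Fasn, and the log2 change was -0.34 (SE 0.23, adjusted p = 0.423). Acss2, which makes acetyl-CoA from acetate, had 124, 40.5 and 129 in p16 papillomas, against 112, 111, 119 and 107.5 in Control papillomas. The low value of p16 2 stood for 14 reads and set the sign, for the log2 change was -0.37 with that papilloma and 0.17 without it. Acaca, the carboxylase that commits acetyl-CoA to fatty acids, had a log2 change of -0.08.

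Desaturation and elongation held the widest estimates of the 31 members. Fads1, a front-end desaturase of polyunsaturated fatty acids (chr19:10182888-10196877), had 40.4, 11.6 and 30.1 in p16 papillomas, against 59.8, 32.6, 90.4 and 89.6 in Control papillomas. Control 2 lay inside the p16 range while the other Control papillomas lay above it, and the fitted ratio was 0.394-fold with a 95% interval of 0.203 to 0.767 (log2 change -1.34, SE 0.44, adjusted p = 0.103). These were 30, 4 and 41 reads in p16 papillomas and 70, 27, 99 and 85 reads in Control papillomas. DESeq2 on the recovered reads placed Fads1 just past the threshold (log2 change -1.24, adjusted p = 0.0482), and none of the other alternatives did; without p16 2 the log2 change was -0.84 (adjusted p = 0.316).

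Scd1, the desaturase that makes oleate and palmitoleate (chr19:44394455-44407879), had 90.1, 153 and 331.5 in p16 papillomas, against 70.9, 83.3, 87.7 and 202 in Control papillomas. Papillomas p16 3 and Control 5 were the highest of their groups, and the log2 change of 0.71 had an SE of 0.43 (adjusted p = 0.366). Without p16 3 the log2 change of Scd1 was 0.21, without p16 1 it was 1.15, and without Control 5 it was 1.04, none past the threshold. Elovl6, the elongase of palmitate, had 160.1, 142 and 172 in p16 papillomas, against 100.8, 96.6, 111 and 197 in Control papillomas. Without Control 5 the p16 values would all lie above the Control values; with it the log2 change was 0.38 (SE 0.24, adjusted p = 0.402). Scd2, the related desaturase encoded beside Scd1, had 686, 848 and 523 in p16 papillomas, against 801, 852, 665 and 945 in Control papillomas, with a log2 change of -0.27 (SE 0.19, adjusted p = 0.444) and thus the other sign from Scd1.

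Markers of the sebaceous gland, of which 11 were in the table, summed to 222, 625 and 1287 in p16 papillomas, against 212, 227, 321 and 583 in Control papillomas. Papillomas p16 3 and Control 5, which had the highest Scd1, also had the highest sum of their groups. Krt79, a keratin of the sebaceous duct, was the largest single part of this sum in every papilloma. Its values were 110.3, 486 and 902 in p16 papillomas, against 77.7, 164, 200 and 389.9 in Control papillomas. Markers under the filter on low values were divided, with Scd3, Pparg and Dgat2l6 lower and Awat2 higher in mean in p16 papillomas. Far2, which makes fatty alcohols for waxes, was at 10.8, 14.5 and 95.5 in p16 papillomas, against 17.9, 14.5, 12.8 and 36.9 in Control papillomas. Of the 7 sebaceous markers tested with limma, 0 passed and 1 had an unadjusted p under 0.05, the transferase gene Mgst1 (log2 change 1.01, adjusted p = 0.124). With the sebaceous score as a covariate the log2 change of Scd1 was 0.45 (adjusted p = 0.344) and that of Elovl6 0.29 (adjusted p = 0.515).

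**Figure D3:**
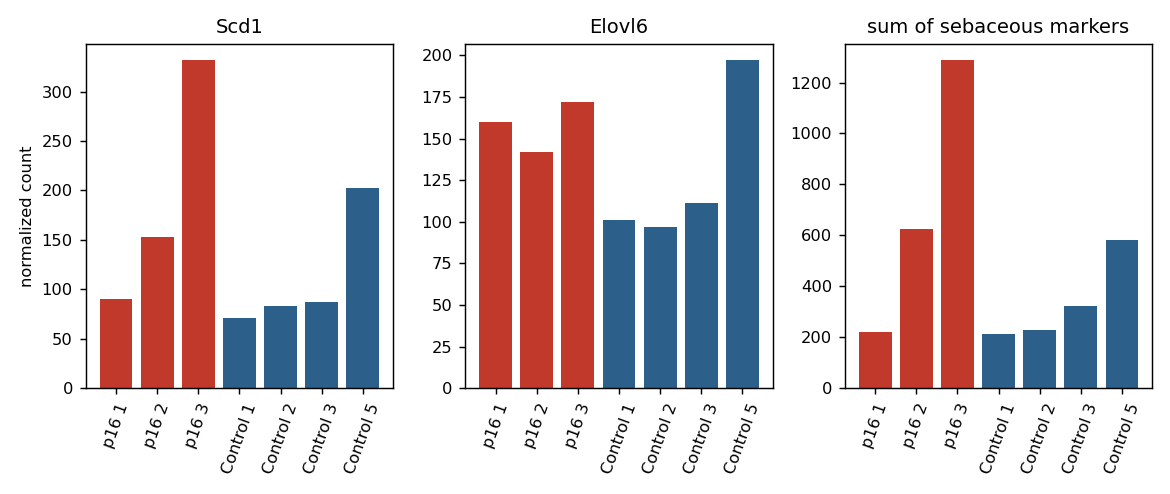
Normalized counts of Scd1 and Elovl6 and the sum of 11 sebaceous markers in each papilloma, p16 in red and Control in blue. Control 5 is the highest Control bar in each panel (202, 197 and 583), and p16 3 is the highest p16 bar in each.

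Within the Control group, the order of the papillomas was described by counts, with no test. The orders counted were picked after the Control values were seen, so their shares cannot be weighed against those of all genes. Control 3 had the lowest Control value for 10 of the 18 cholesterol enzymes and the highest for 0; over all tested genes it was lowest for 27.8%. Controls 2 and 5 were both above Controls 1 and 3 for 9 of the 18 (Acat2, Mvk, Mvd, Idi1, Fdft1, Lss, Cyp51, Msmo1 and Sc5d), for 3 of 8 fatty acid enzymes and for 3 of 5 regulators, against 18.9% of all tested genes. Others ran differently, with Control 1 highest for 6 of the 18 (Fdps, Sqle, Tm7sf2, Nsdhl, Hsd17b7 and Ebp). Control 3 was lowest for only 2 of the 8 fatty acid enzymes. Averaged over the 18 cholesterol enzymes, the log2 deviation from the Control mean of each gene was 0.02, 0.02 and 0.07 in p16 papillomas, against 0.05, 0.03, -0.19 and 0.11 in Control papillomas. All 3 p16 papillomas therefore lay inside the range of the Control papillomas. For the 8 fatty acid enzymes the deviation was -0.13, -0.41 and 0.08 in p16 papillomas, against -0.18, -0.16, -0.07 and 0.41 in Control papillomas, with p16 2 lowest and Control 5 highest. Control 5 was the highest Control papilloma for 5 of these 8 genes. For the 5 regulators the deviation was -0.09, 0.00 and 0.05 in p16 papillomas, against -0.03, 0.06, -0.23 and 0.20 in Control papillomas, and again Controls 3 and 5 were the ends of the range.

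**Figure D4:**
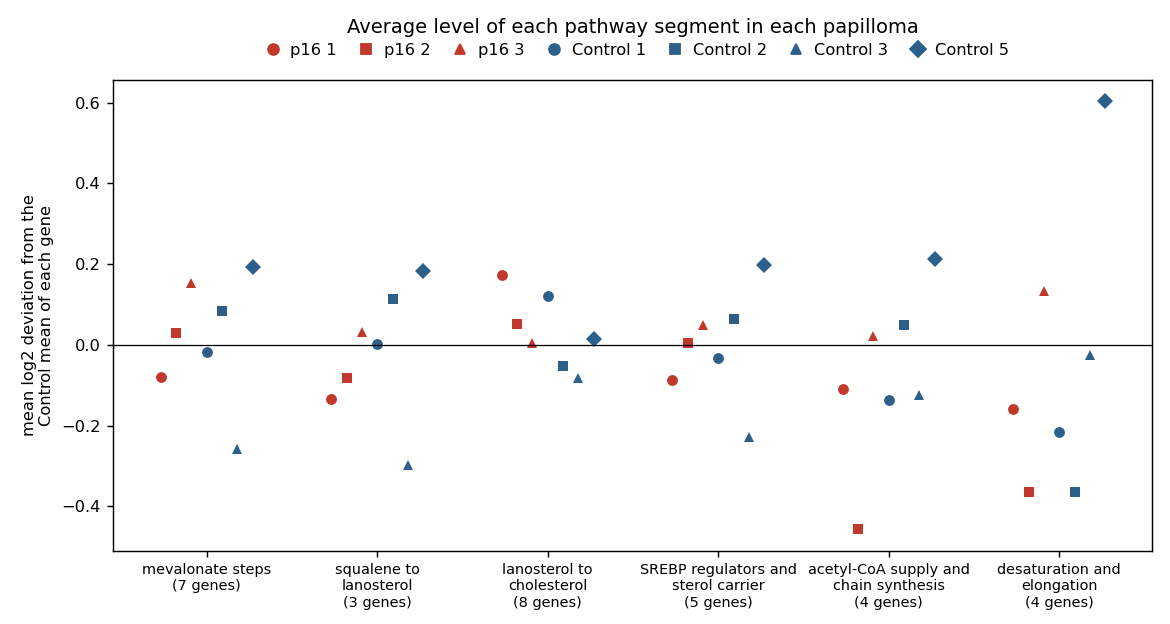
Mean log2 deviation from the Control mean, averaged over the genes of each pathway segment, for every papilloma, with p16 in red and Control in blue. The p16 marks lie within the range of the Control marks in the mevalonate, squalene and regulator segments; p16 1 is above it from lanosterol to cholesterol, p16 2 is below it in acetyl-CoA supply and chain synthesis, and p16 2 (-0.36) is level with Control 2 (-0.36) in desaturation and elongation.

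Adipocyte markers ran in both directions between the groups. Of the 12 listed adipocyte genes, 6 were tested and 3 rose (Adipoq, Cfd and Car3), while the other 3 had negative estimates and did not pass, namely Fabp4 (log2 change -1.54, adjusted p = 0.0764), Lipe (-0.52) and Cidea (-0.30). Plin1, the lipid droplet coat of fat cells, was at 0 in every Control papilloma. The sum over all 12 genes, most of it Fabp4, was 2655, 2255 and 2040 in p16 papillomas, against 11450, 5005, 1958 and 5420 in Control papillomas. Fabp4 can also be expressed by keratinocytes and endothelium, and a sum without it, not planned beforehand, was added. That sum, over the other 11 genes, was 352, 938 and 614 in p16 papillomas, against 204, 186, 146 and 265.5 in Control papillomas. Lipe and Cidea, which like Fabp4 carry the authors' mark of expression in sorted keratinocytes, stayed in it. Of the sums without Fabp4, Car3 alone gave 137, 698 and 295 in p16 papillomas, against 31.6, 38.65, 12.8 and 33.7 in Control papillomas. With Car3 also taken out, the sum of p16 1 would lie below that of Control 5, so the groups would overlap. The papilloma with the most Car3, p16 2, also had the highest sum of skeletal muscle markers (9789). Whether the Car3 transcripts came from fat cells was not tested. The part of these cells in the members' values was not tested beyond a fit with the adipocyte score as a covariate, which returned median log2 changes of -0.39 for cholesterol enzymes and -0.68 for fatty acid enzymes and no member past the threshold. That score differed between the groups for most of its variance, and the median SE of the members was 0.48 in that fit against 0.19 without it.

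The genes next to these in lipid metabolism were read from 2 further lists of 52 genes, 45 of which were tested. By limma, 5 of these rose in p16 papillomas and 0 fell (2 had negative estimates at an unadjusted p under 0.05, and DESeq2 placed 1, Mid1ip1, past the threshold), where 2.66% of all tested genes rose. The lists were chosen with earlier results of these data known, so the share that rose cannot be weighed against that of all genes. Mylip, the ubiquitin ligase that marks lipoprotein receptors for degradation and is induced by sterol-sensing LXR receptors (chr13:45389742-45412022), was the 1 gene to rise among 21 tested genes of sterol transport, sensing and isoprenoid use. It had 460.1, 339 and 397 in p16 papillomas, against 137, 145, 164 and 95.9 in Control papillomas. The groups were far apart, at a fitted ratio of 2.96-fold with a 95% interval of 2.18 to 4.02 (log2 change 1.57, SE 0.20, adjusted p = 0.00133). The LXR gene Nr1h2 had a log2 change of 0.00, and the transporter Abcg1, another known LXR target, -0.17 (adjusted p = 0.817); Nr1h3 was under the filter on low values. Transcript levels of a receptor and of this target do not measure LXR activity, which was not tested.

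The other genes that rose were 4 of the 24 tested genes of the lipogenic list, and each encodes a step of the cycle that lengthens fatty acids in the endoplasmic reticulum, a grouping made after their values were seen. Elovl5, an elongase of polyunsaturated fatty acids, had 161, 148 and 194 in p16 papillomas, against 83.7, 76.1, 61.2 and 79.0 in Control papillomas (log2 change 1.15, SE 0.19, adjusted p = 0.00437). Elovl7, an elongase of saturated chains, had 1408, 1719 and 1287 in p16 papillomas, against 815, 783, 740.5 and 859 in Control papillomas (log2 change 0.87, SE 0.15, adjusted p = 0.00521). Neither gene's groups overlapped.

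Hacd2, a dehydratase of the cycle, had 486, 544 and 611.5 in p16 papillomas, against 375, 287.5, 284 and 272 in Control papillomas (log2 change 0.85, SE 0.16, adjusted p = 0.0104). Tecr, the reductase that completes each round, had 2555, 3155 and 2701 in p16 papillomas, against 1817, 1925, 1621 and 1656 in Control papillomas (log2 change 0.67, SE 0.14, adjusted p = 0.0186), and 16.7% of the 40-base words of its 3′ end also occur in a processed pseudogene. Tecr lost its call without p16 2 (adjusted p = 0.0997) and without Control 5 (adjusted p = 0.0601). The other genes of the cycle on these lists did not pass, with log2 changes of -0.12 for Elovl1, 0.77 for Elovl3, 0.15 for Hsd17b12, 0.36 for Hacd3 and 0.38 for the member Elovl6. These 5 genes that rose moved in the same papillomas in which 5 of 8 differentiated keratinocyte markers rose, and the part of that shift in their change was not tested.

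**Figure D5:**
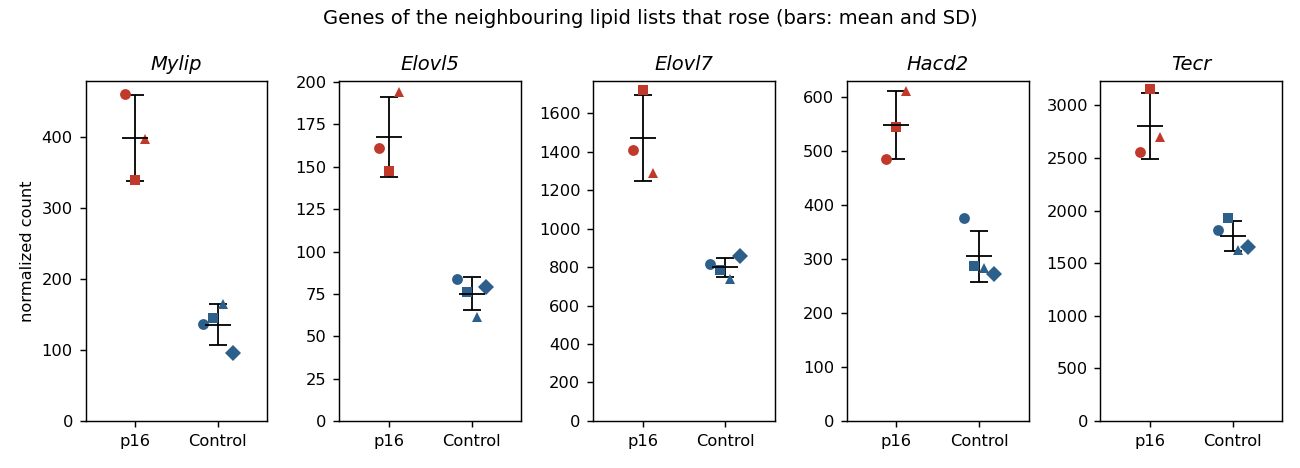
Normalized counts of the 5 neighbouring lipid genes that rose, in each papilloma, with the mean and SD of p16 (red, n = 3) and Control (blue, n = 4) papillomas; axes start at 0. Every p16 mark is above every Control mark, as for Mylip with 339 to 460.1 against 95.9 to 164.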

How the data were processed

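Whole papillomas were profiled by CEL-Seq2, which sequences transcript 3′ ends. Per the study's methods and the submitters' processing notes, the authors trimmed reads with Cutadapt, aligned them to GRCm38 with TopHat2, counted them with HTSeq and scaled them with DESeq2; versions, strand setting and the handling of multiply matching reads are not given in the sources used here. The deposited signal values are the authors' normalized read counts per gene. The deposited table also holds other columns: a mark of genes expressed in sorted keratinocytes, which served 1 alternative, and the authors' own fold changes and p-values, which were not used. All values (100%) were whole multiples of 1 read within 0.001 reads, so reads were recovered.

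Testing was limited to 10466 genes whose group mean reached 10 in p16 or in Control papillomas. It was done on log2(value + 1) with limma 3.58.1 (R 4.3.3), 3 p16 against 4 Control papillomas, with Benjamini-Hochberg adjustment and a threshold of 0.05; log2 changes are on this scale and understate low genes. The test was tried on simulated counts. On recovered reads, edgeR 4.0.16 passed 543 genes in all and 0 members. Alternatives changed the pseudocount, filter, scaling, tool (edgeR, DESeq2 1.42.0, limma-voom), covariates and papillomas. Gene positions came from GENCODE (GRCm38) and promoters from RefSeq; figures were drawn with matplotlib 3.10.9. Values in full were given, in each of 6 pathway segments, for the member with the smallest p and that with the largest mean; others named in full (Hmgcs1, Mvk, Ebp, Hsd17b7, Sc5d, Insig1, Acss2, Scd1, Elovl6 and Insig2) were chosen after their values were seen. Members and lists were chosen with earlier results of these data known.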

Additional observations from a re-analysis of the deposited data

Results flagged for a closer look

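Control 5 lay far from the other Control papillomas for 2 members. Its Scd1 value was 202.3, where the other Control papillomas had 70.9 to 87.7, and the gap to the nearest was 0.872 of the whole Control range. Its Elovl6 value was 197, where the others had 96.6 to 111, and the gap was 0.853 of the range; both gaps are past Dixon's critical value for 4 samples at 95%. Among 31 members tested in this way, chance flags about 1 in 20. Without Control 5 the log2 changes were 1.04 for Scd1 (adjusted p = 0.188) and 0.61 for Elovl6 (adjusted p = 0.113). Without p16 3 the log2 change of Scd1 was 0.21 (adjusted p = 0.795).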

How the results depend on the processing

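No member passed the threshold in 18 of the 20 alternatives; Fads1 did with DESeq2 (fatty acid enzymes, 1 gene) and Idi1 did without Control 3. Of 31 members, 15 kept their sign in all alternatives, and 20 did in the 19 without the adipocyte covariate, where Acss2 (-0.37) was the largest to change. Among neighbouring genes, DESeq2 and the fit without Control 3 each placed 1 lower gene past the threshold, Mid1ip1, whose product partners acetyl-CoA carboxylase. Limma-voom gave 185 lower genes in all, against 310 with limma on log2 values. It placed 6 higher neighbouring genes past the threshold, with Lpin1 added (log2 change 1.88, adjusted p = 0.047). With the replicate block, 270 genes passed (135 higher, 135 lower) and 3 neighbouring genes rose, with Tecr (adjusted p = 0.108) and Hacd2 (0.0992) lost. Control 5 has no p16 papilloma of its number, so the block gives the same estimates as the fit without Control 5 (Mylip 1.41 in both). For the signs of the members these fits are therefore the same alternative. Same-numbered papillomas had correlations of deviations of -0.09, -0.01 and -0.05. With so few papillomas, these values neither show nor exclude a pairing by number. With the adipocyte covariate, 8 genes passed (5 higher, 3 lower), 0 of them neighbouring genes, and medians were -0.39 for cholesterol enzymes, -0.68 for fatty acid enzymes and -0.30 for regulators; 0.843 of the score's variance lies between the groups, and the members' median SE was 0.48 against 0.19 without it. Leaving out 1 papilloma at a time gave 267 to 548 genes in all, 114 to 267 higher and 153 to 281 lower, with the fewest without p16 2, 0 to 1 cholesterol enzymes, and 0 to 1 lower neighbouring genes; cholesterol enzyme medians ran from -0.10 to 0.05. The cause of these differences was not tested. Depth limits Insig1, Fads1 and Acss2, with 4, 4 and 14 reads in p16 2.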
